A study of Mus musculus with 18 samples.

Results

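Transcripts of the mitochondrial respiratory chain were followed in lung epithelial cells sorted by Wnt/beta-catenin reporter activity. The set holds 93 of the 30105 genes measured and no subunit encoded in mitochondrial DNA. Its members carry a symbol on the array that starts with Ndufa, Ndufb, Ndufc, Ndufs or Ndufv (complex I), Sdha to Sdhd (complex II), Uqcr (complex III), Cox4 to Cox8 (complex IV) or Atp5 (ATP synthase), with pseudogenes left out. By class the set has 36 complex I, 4 complex II, 8 complex III, 18 complex IV and 17 ATP synthase genes. Another 10 genes with these prefixes are assembly factors and others, namely Ndufaf1 to Ndufaf7, Sdhaf1, Sdhaf2 and Atp5sl. The rule uses names and not measured differences, but it was chosen with earlier results of these data known. Each gene was read from 1 probe set with a single symbol, and where there were several the brightest on average was used.

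The cells came from mice of the strain TCF/Lef:H2B/GFP, 8 to 12 weeks old, in which TCF/Lef sites drive a histone-bound green fluorescent protein, so the reporter is carried by all 3 groups. EpCAM+ DAPI- cells, depleted of CD31 and CD45 positive cells, were collected as GFP high (Wnthigh), GFP low (Wntlow) and GFP negative (Wntnegative), and no agent or second allele is named for any group. Each group has 6 arrays and each array holds RNA of 3 to 4 pooled animals. The sort separates cells by reporter signal and not by cell type, and in such bulk samples fewer cells of a type and less RNA per cell cannot be told apart.

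By their values the arrays form 2 sets, called runs here. The labels name no run or date and give no normalization by set, and "earlier" and "later" refer to the experiment numbers only. Experiments 2 to 5, the earlier run, had array medians of 4.55 to 4.68, and experiments 7 to 9, the later run, had 3.50 to 3.65, with 3 arrays of each group in each run. All differences below are therefore within-run log2 differences on the deposited scale, averaged over both runs by limma with the run as a block, and "passed" means an adjusted p under 0.05 over all 30105 genes. As a level of array background, the 95th percentile of 23 background probe sets ran from 4.82 to 5.17 in the earlier and 4.57 to 4.92 in the later run. On all 18 arrays 82 of the 93 members were above it, while Cox8b, Cox8c and Ndufa4l2 were below it on every array. The groups differed in cell markers. The mean of 16 ciliated cell markers ran from 14.11 to 14.67 on Wnthigh arrays of both runs and from 4.44 to 7.20 on Wntnegative arrays. Within Wntlow that mean was 13.54 in experiment 3 and 9.63 in experiment 4, so these 2 arrays stood apart in the earlier run. Of the markers of cells removed by the depletion, 3 to 5 of 6 endothelial and 3 to 5 of 6 immune genes, depending on group and run, were below it on every array of a group in a run, among them Pecam1 and Ptprc (CD31 and CD45) on all 18 arrays. The exceptions included the endothelial genes Kdr, with run means of 10.79 and 10.37 in Wntlow, 7.33 and 5.64 in Wnthigh and 5.11 and 4.02 in Wntnegative, and Esam, with 10.33 and 9.55 in Wntnegative. The immune list's lysozyme gene Lyz1 had run means of 13.94 to 19.79 over the groups. All 6 fibroblast and muscle genes were below it in every group of the later run.

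Complexes I to IV of the inner mitochondrial membrane pass electrons from NADH and succinate to oxygen, and ATP synthase uses the proton gradient so built to make ATP. Complex I takes electrons from NADH, complex II is also the succinate dehydrogenase of the citric acid cycle, complex III hands electrons to cytochrome c, and complex IV is cytochrome c oxidase. In the lung, ciliated cells are known for dense rows of mitochondria below the cilia, and club and alveolar type II cells are also rich in them.

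The respiratory chain genes stood highest in Wntlow cells. Most members moved little: the size of the difference was under 0.5 for 72 of 93 members in Wnthigh minus Wntnegative, 78 in Wntlow minus Wntnegative and 73 in Wnthigh minus Wntlow. The median level of the 93 genes read 10.89, 10.96 and 10.99 on the Wntlow arrays of the earlier run, 10.57, 10.59 and 10.89 on the Wnthigh arrays, and 10.75, 10.84 and 10.85 on the Wntnegative arrays. In the later run it read 9.41, 9.91 and 10.16 in Wntlow, 8.84, 9.14 and 9.48 in Wnthigh, and 8.96, 9.10 and 9.28 in Wntnegative. Every Wntlow array was thus above every Wntnegative array of its run, while 1 Wnthigh array in each run reached into the Wntlow range.

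Wntlow cells were compared with Wntnegative cells to ask how the genes differ between weak and no reporter signal. Members rose in every complex, and Ndufaf7, Uqcr10 and Sdhd had the largest increases. Of the 93 members, 37 (39.8%) rose, against 12.3% of all genes tested, and 2 (2.15%) fell, against 13.2%. The 2 that fell were Cox6a2 and Cox7a1, both known as muscle forms of complex IV subunits. The median difference of the members was 0.22 (all genes -0.03), at 0.14 in experiments 2 to 5 and 0.28 in experiments 7 to 9, and 79 of 93 were above 0 (84.9%, all genes 39.3%). The class medians were 0.23 for complex I, 0.40 for complex II, 0.40 for complex III, 0.10 for complex IV, 0.24 for ATP synthase and 0.26 for the assembly factors and others. In either direction 25.5% of all genes passed. Among genes above background on at least 3 arrays, 22.5% rose and 21.6% fell (44.1% in either direction), beside 37 and 2 of the 89 members so filtered. In 28 members (30.1%) every Wntlow array exceeded every Wntnegative array within both runs, as in 8.99% of all genes, and the reverse held for 0 members (6.48% of all genes). With group as the only term, a fit that leaves the offset between runs in the residual spread, 2 members (Ndufaf7 and Uqcr10) still passed, as did 3.52% of all genes in either direction. In the earlier run alone 7 members (7.53%, all genes 4.74%) rose and 0 (all genes 3.52%) fell at the adjusted threshold, and in the later run alone 18 (19.4%, all genes 8.32%) rose and 1 (1.08%, all genes 6.52%) fell. Array centring gave 54 members higher and quantile normalization over both runs 45, beside 17.1% and 14.7% of all genes.

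Markers of secretory and ciliated cells moved with this comparison. All 8 club cell genes, 8 of 9 goblet genes and 16 of 16 ciliated genes were higher in Wntlow, and 4 of 12 alveolar type II, 5 of 9 alveolar type I and 1 of 5 proliferation genes were lower. The mean of the goblet genes ran from 11.34 to 12.66 over the Wntlow arrays of both runs and from 4.89 to 6.23 over the Wntnegative arrays, and their part in the result was not tested. Without the Wntlow arrays of experiments 3 and 4, 37 members (39.8%, all genes 12.2%) rose and 2 (2.15%, all genes 11.5%) fell.

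**Figure D1:**
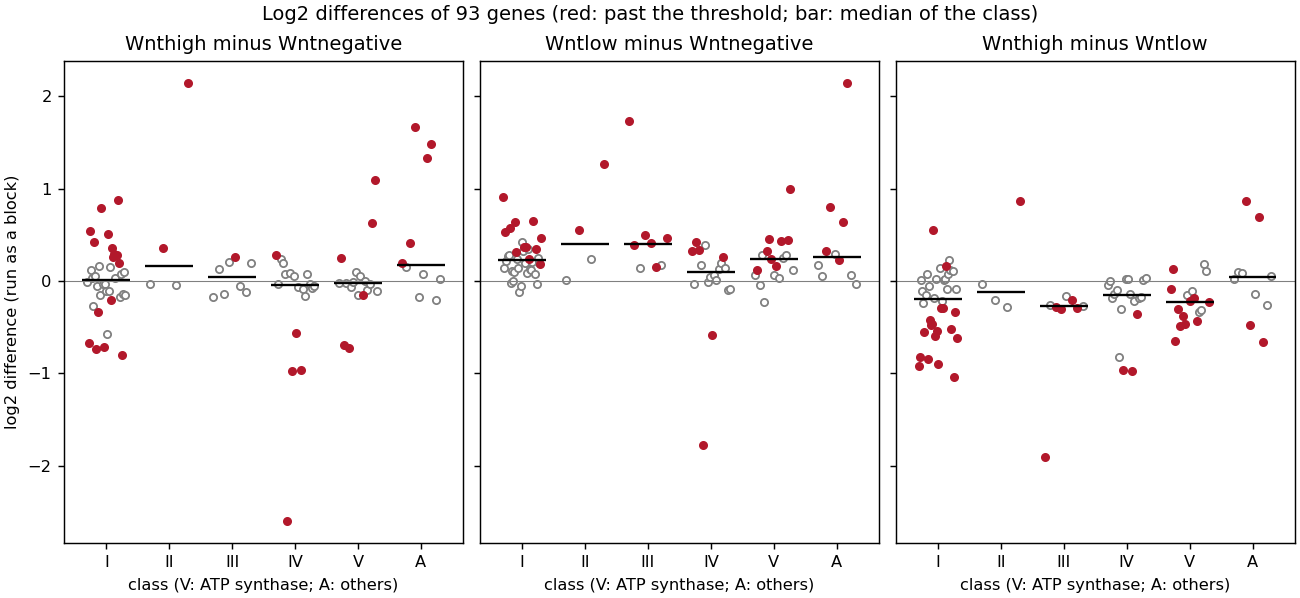
Log2 difference of each of the 93 genes (vertical axis, deposited log2 scale, run as a block) in 3 comparisons, by class (I to IV: complexes; V: ATP synthase; A: assembly factors and others); filled red points passed limma at an adjusted p under 0.05, open points did not, and bars are class medians. In Wntlow minus Wntnegative 37 points are red above 0 and 2 below it; in Wnthigh minus Wntlow 6 are above and 36 below.

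Wnthigh cells were compared with Wntlow cells to set strong against weak reporter signal. Here 36 members (38.7%) fell, against 16.4% of all genes, and 6 (6.45%) rose, against 11.4%. The decreases lay in complex I with 16 of 36 members, ATP synthase with 10 of 17, complex III with 5 of 8, complex IV with 3 of 18 and the assembly factors with 2 of 10. In either direction 27.9% of all genes passed, and among genes above background on at least 3 arrays 20.3% rose and 29.8% fell (50.1% in either direction), beside 6 and 35 of 89 members. The 6 that rose were Sdhd, Ndufaf3, Ndufaf6, Ndufab1, Ndufc2 and Atp5b, of which Ndufc2 (adjusted p = 0.0298) no longer passed with the experiment as a replicate block (adjusted p = 0.0916). The median of the members was -0.19 (all genes -0.01), at -0.11 in experiments 2 to 5 and -0.31 in experiments 7 to 9, and 26 of 93 (28.0%) were above 0, as were 44.1% of all genes. Class medians were -0.20 for complex I, -0.12 for complex II, -0.28 for complex III, -0.16 for complex IV, -0.23 for ATP synthase and 0.04 for the assembly factors and others. Every Wnthigh array lay below every Wntlow array in both runs for 20 members (21.5%, all genes 10.3%), and above for 4 (4.3%, all genes 8.04%). With group as the only term 0 members rose and Uqcr10 alone fell, with 4.48% of all genes called in either direction (at an unadjusted p under 0.05 that fit gave 7 members). Quantile normalization over both runs gave 9 members higher (9.68%, all genes 11.9%) and 25 lower (26.9%, all genes 14.2%) in place of 6 and 36.

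In the earlier run alone 7 members (7.53%) fell and 3 (3.23%) rose, near the shares of all genes in that fit (6.12% and 4.8%). The later run alone gave other shares: 24 (25.8%, all genes 11.5%) fell and 2 (2.15%, all genes 8.66%) rose. Secretory markers moved the same way as the members that fell: 9 of 9 goblet and 6 of 8 club genes were lower in Wnthigh, 7 of 12 alveolar type II genes were lower, and 16 of 16 ciliated genes were higher. Also lower in Wnthigh were 4 of 5 proliferation genes, with Mki67 at -3.60, and 4 of 9 alveolar type I genes, of which 1 was higher. The goblet mean ran from 6.86 to 10.40 on Wnthigh arrays of both runs, the highest being experiment 4, and from 11.34 to 12.66 on Wntlow arrays. The part of these cell types in the result was not tested.

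Wnthigh cells were compared with Wntnegative cells to set strong against no reporter signal. The members split: Sdhd and 3 assembly factors rose most, and the muscle form Cox6a2 fell most. Of the 93 members, 22 (23.7%) rose, against 15.7% of all genes, and 13 (14.0%) fell, against 24.6% (either direction 40.3%). Among genes above background on at least 3 arrays 27.6% rose and 39.7% fell (67.3% in either direction), beside 22 and 13 of 89 members. The median was -0.01 (all genes -0.05), at 0.02 and 0.01 in the 2 runs, and 44 of 93 were above 0 (47.3%, all genes 35.8%). Class medians were 0.01, 0.16, 0.04, -0.05, -0.03 and 0.17 in the order of complexes I to IV, ATP synthase and the remaining genes. The groups did not overlap in either run for 18 members higher in Wnthigh (19.4%, all genes 12.9%) and 11 lower (11.8%, all genes 17.8%). Centring each array on its median gave 27 members higher (29%, all genes 20.5%) and 10 lower (10.8%, all genes 19.3%). Quantile normalization over both runs gave 39 (41.9%, all genes 19.5%) and 9 (9.68%, all genes 18%). The split thus moves with the scaling, as do the shares of all genes. With group as the only term 4 members rose (Sdhd, Ndufaf3, Ndufaf7 and Atp5mpl) and 1 fell (Cox6a2), beside 9.37% of all genes in either direction. In the earlier run alone 18 (19.4%, all genes 12.2%) rose and 8 (8.6%, all genes 17.7%) fell. From the later arrays alone 12 (12.9%) rose, near the 11.3% of all genes, and 9 (9.68%, all genes 15%) fell. All 16 ciliated, all 8 club and 6 of 9 goblet genes were higher in Wnthigh, while 11 of 12 alveolar type II, 8 of 9 alveolar type I, 2 of 9 goblet and 3 of 5 proliferation genes were lower. Their part in the result was not tested.

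**Figure D2:**
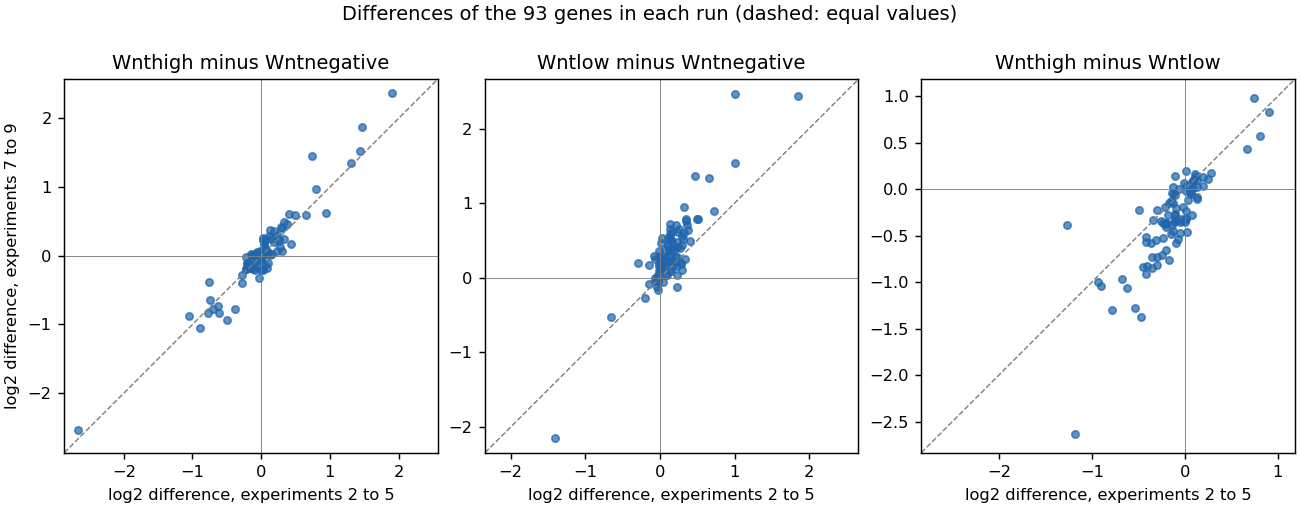
Log2 difference of each of the 93 genes in experiments 2 to 5 (horizontal axis) and in experiments 7 to 9 (vertical axis) for the 3 comparisons; the dashed line marks equal values. The member farthest from 0 is Cox6a2 in Wnthigh minus Wntnegative and Uqcr10 in Wnthigh minus Wntlow, and no gene passed the test of a difference between the runs.

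Whether the group differences depended on the run was tested as an interaction in limma. None of the 93 members passed (0 of 30105 genes did, 0%), and at an unadjusted p under 0.05 there were 10 members and 2087 of all genes. The lowest adjusted p was 0.229 for Ndufa1, followed by 0.512 for Uqcr10. Experiments 4, 5, 7, 8 and 9 gave an array of every group, so differences can also be taken inside an experiment. The member median of Wntlow minus Wntnegative was 0.12, 0.10, 0.29, 0.45 and 0.20 in those experiments, with 68, 67, 74, 83 and 77 of 93 members above 0. The median of Wnthigh minus Wntlow was -0.02, -0.17, -0.34, -0.42 and 0, and that of Wnthigh minus Wntnegative 0.03, -0.05, -0.12, 0 and 0.16. Wntlow minus Wntnegative was the comparison with a median above 0 in all 5 experiments.

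**Figure D3:**
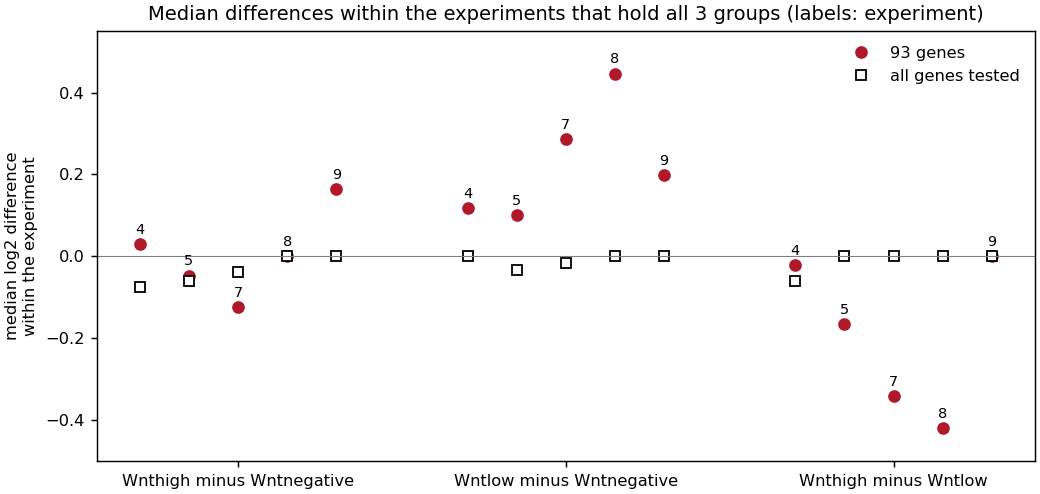
Median log2 difference of the 93 genes (red circles) and of all genes tested (open squares) inside each of the 5 experiments that hold an array of every group, labelled by experiment number. In Wntlow minus Wntnegative the red circles lie between 0.10 and 0.45.

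Complex I, the NADH dehydrogenase, had Ndufa1 as its member with the largest increase in Wntlow. Ndufa1 is a small X-linked subunit anchored in the membrane and needed for assembly. It read 15.70, 15.90 and 16.08 on the Wntlow arrays of the earlier run, against 15.33, 15.41 and 15.52 in Wnthigh and 15.29, 15.47 and 15.52 in Wntnegative. The later arrays gave 15.61, 15.98 and 15.98 in Wntlow, 14.32, 14.54 and 14.58 in Wnthigh, and 14.33, 14.54 and 14.60 in Wntnegative. The Wntlow arrays lay above both other groups in each run, and Wnthigh and Wntnegative overlapped. Wntlow minus Wntnegative was 0.91 (SE 0.15, adjusted p = 0.000362) and Wnthigh minus Wntlow -0.92 (SE 0.15, adjusted p = 0.00021), while Wnthigh minus Wntnegative was -0.01 (SE 0.15, adjusted p = 0.977).

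Ndufs4 and Ndufab1 followed another order, with Wnthigh highest. Ndufs4, an accessory subunit of the matrix arm whose loss causes Leigh-like disease, read 12.85, 12.88 and 12.94 in Wnthigh, 12.42, 12.59 and 12.82 in Wntlow and 12.05, 12.06 and 12.18 in Wntnegative in the earlier run. Later arrays read 11.26, 11.32 and 11.44, then 10.89, 11.04 and 11.56, and 10.19, 10.26 and 10.66 in the same order of groups. Both reporter-positive groups lay wholly above Wntnegative in each run and overlapped each other in the later one. The difference was 0.88 (SE 0.11, adjusted p = 6.17e-06) for Wnthigh and 0.65 (SE 0.11, adjusted p = 0.000359) for Wntlow, each against Wntnegative, and 0.23 (SE 0.11, adjusted p = 0.155) between them. Ndufab1, the mitochondrial acyl carrier protein, was higher in Wnthigh than in Wntnegative by 0.79 (SE 0.10, adjusted p = 8.68e-06) and than in Wntlow by 0.55 (SE 0.10, adjusted p = 0.000526). Its Wntlow minus Wntnegative difference of 0.24 (adjusted p = 0.103) passed with the experiment as a replicate block (adjusted p = 0.0205).

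Ndufs8 and Ndufb11 were lowest in Wnthigh. Ndufs8, which carries iron-sulfur clusters on the path to ubiquinone, read 10.57, 10.77 and 11.10 in Wnthigh, 11.33, 11.64 and 11.84 in Wntlow and 11.44, 11.62 and 11.70 in Wntnegative in the earlier run. In the later run the values were 8.84, 9.14 and 9.27, then 9.88, 10.45 and 10.82, and 9.74, 9.89 and 10.11. Every Wnthigh array lay below every array of both other groups, which overlapped each other. Wnthigh differed by -0.80 (SE 0.16, adjusted p = 0.000595) from Wntnegative and by -1.04 (SE 0.16, adjusted p = 8.64e-05) from Wntlow, and Wntlow minus Wntnegative was 0.24 (SE 0.16, adjusted p = 0.299). Ndufb11, of the membrane arm, differed by -0.71 (adjusted p = 0.000729) and -0.60 (adjusted p = 0.00448) in the same 2 comparisons.

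The catalytic core of complex I moved less. Ndufs1, the largest subunit, had differences of 0.03, 0.12 and -0.08 in Wnthigh minus Wntnegative, Wntlow minus Wntnegative and Wnthigh minus Wntlow (adjusted p = 0.708, 0.165 and 0.346). Ndufs7, which holds the last iron-sulfur cluster, had 0.07, -0.04 and 0.11 (adjusted p = 0.314, 0.678 and 0.165). Neither passed in any comparison of the main fit. With array centring Ndufs1 passed in Wntlow minus Wntnegative (0.19, adjusted p = 0.0394). With quantile normalization over both runs Ndufs7 passed in Wnthigh minus Wntnegative (0.23, adjusted p = 0.00788) and Wnthigh minus Wntlow (0.19, adjusted p = 0.041). Ndufv1, which binds NADH, fell in Wnthigh against Wntlow by 0.34 (difference -0.34, adjusted p = 0.00558), and its Wntlow minus Wntnegative value of 0.19 (adjusted p = 0.112) passed with the replicate block (adjusted p = 0.0431). Ndufv2 rose in Wntlow against Wntnegative by 0.18 (adjusted p = 0.00662). Ndufs3 rose in Wnthigh against Wntnegative by 0.28 (adjusted p = 0.013), and its Wntlow value of 0.20 (adjusted p = 0.0952) passed with the replicate block (adjusted p = 0.0255). Ndufa4, named as a complex I gene but now placed with complex IV, rose by 0.57 (adjusted p = 0.00357) in Wntlow. It rose by 0.42 (adjusted p = 0.0158) in Wnthigh, each against Wntnegative, the latter passing no longer without experiment 9 (adjusted p = 0.0815). Its paralog Ndufa4l2, known for induction under low oxygen, was below background on every array.

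Over the class, 12 of 36 complex I genes (33.3%, all genes 12.3%) rose in Wntlow against Wntnegative, by 0.18 to 0.91. In the same comparison 0 fell, beside 13.2% of all genes. In Wnthigh against Wntnegative 10 (27.8%, all genes 15.7%) rose, by 0.19 to 0.88. Another 6 (16.7%, all genes 24.6%) fell there, with differences of -0.80 to -0.20. Among genes above background on at least 3 arrays 27.6% rose and 39.7% fell in that comparison. In Wnthigh against Wntlow 16 (44.4%, all genes 16.4%) fell, with differences of -1.04 to -0.29, while Ndufab1 and Ndufc2 (5.56%, all genes 11.4%) rose. Ndufb4 and Ndufa11 lie only on probe sets with several symbols and were not analysed here.

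**Figure D4:**
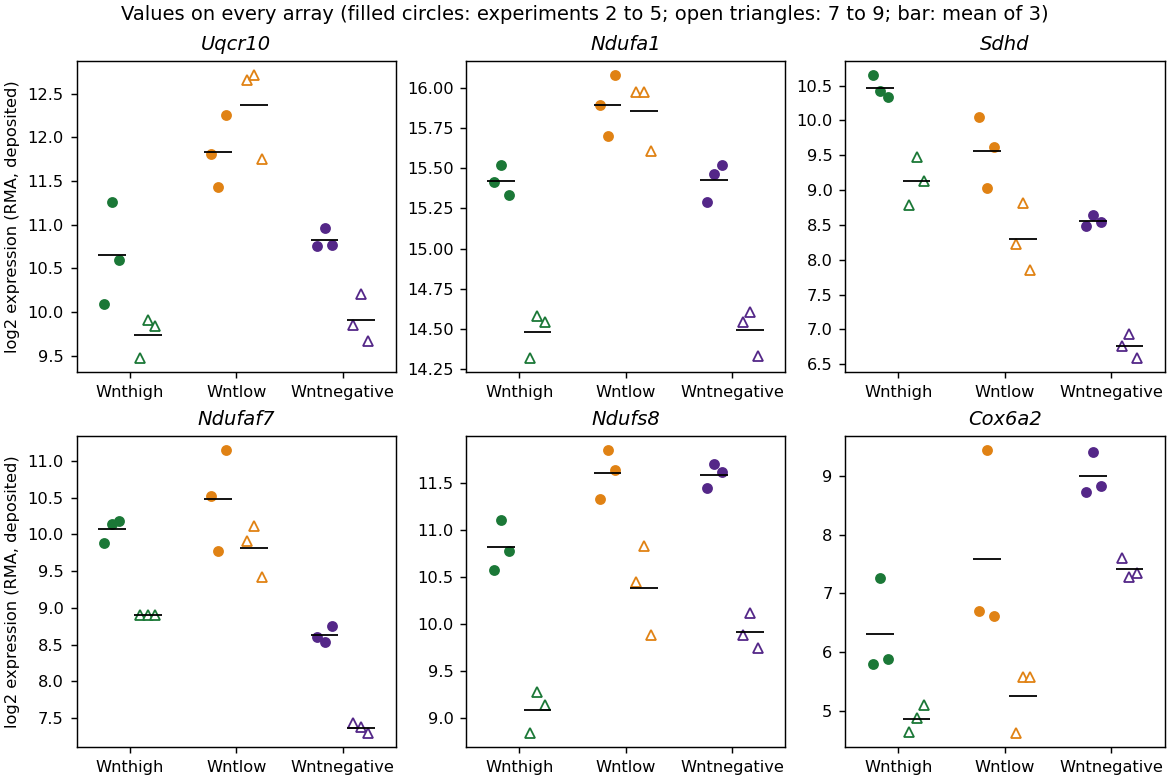
Deposited log2 values (vertical axes, which differ between genes) of 6 respiratory chain genes on every array by sorted group; filled circles are experiments 2 to 5, open triangles experiments 7 to 9, and bars are means of 3 arrays. Uqcr10 and Ndufa1 are highest in Wntlow, Sdhd is highest in Wnthigh and lowest in Wntnegative, Ndufaf7 is lowest in Wntnegative, Ndufs8 is lowest in Wnthigh and Cox6a2 is high in Wntnegative.

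Complex II, succinate dehydrogenase, held the largest increase of any member in Wnthigh cells. Sdhd, 1 of its 2 membrane anchors, read 10.34, 10.42 and 10.65 in Wnthigh, 9.02, 9.61 and 10.05 in Wntlow and 8.49, 8.55 and 8.64 in Wntnegative in the earlier run. In the later run it read 8.78, 9.12 and 9.48, then 7.86, 8.22 and 8.81, and 6.59, 6.76 and 6.93. Wntnegative lay below the other groups in each run, and Wnthigh and Wntlow overlapped by 1 array in the later run. The difference from Wntnegative was 2.14 (SE 0.19, adjusted p = 1.19e-07) in Wnthigh and 1.27 (SE 0.19, adjusted p = 0.000119) in Wntlow, and Wnthigh minus Wntlow was 0.87 (SE 0.19, adjusted p = 0.00177). The other subunits of the same enzyme did not move in step. Sdhb, the iron-sulfur subunit, rose by 0.56 (adjusted p = 0.00168) in Wntlow and by 0.35 (adjusted p = 0.0201) in Wnthigh, the latter passing no longer without experiment 3 (adjusted p = 0.0574) or 9 (adjusted p = 0.0913). Sdha, the flavoprotein that oxidises succinate, had differences of -0.03, 0.01 and -0.03, and Sdhc, the other anchor, had -0.05, 0.24 and -0.28, in Wnthigh minus Wntnegative, Wntlow minus Wntnegative and Wnthigh minus Wntlow. None of these passed, with adjusted p of 0.0939 or more. However, Sdhc in Wnthigh minus Wntlow passed with the replicate block (-0.33, adjusted p = 0.0157) and without experiment 2 (-0.35, adjusted p = 0.038).

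Complex III, the cytochrome bc1 complex, had 6 of its 8 genes higher in Wntlow than in Wntnegative, namely Uqcr10, Uqcr11, Uqcrc1, Uqcrc2, Uqcrfs1 and Uqcrq, and 0 lower. Those 6 made up 75% of the class, while 12.3% of all genes were higher and 13.2% lower. Uqcr10, a small accessory subunit, read 11.44, 11.81 and 12.25 in Wntlow, 10.09, 10.59 and 11.26 in Wnthigh and 10.75, 10.77 and 10.96 in Wntnegative in the earlier run. Its values in the later run were 11.75, 12.66 and 12.71 in Wntlow, 9.48, 9.84 and 9.90 in Wnthigh and 9.67, 9.86 and 10.21 in Wntnegative. Every Wntlow array lay above every other array of its run, and Wnthigh and Wntnegative overlapped. Wntlow minus Wntnegative was 1.73 (SE 0.29, adjusted p = 0.000362), Wnthigh minus Wntlow -1.91 (SE 0.29, adjusted p = 9.29e-05) and Wnthigh minus Wntnegative -0.18 (SE 0.29, adjusted p = 0.672).

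The larger subunits of complex III moved the same way by less. Uqcrc1 and Uqcrc2, the core proteins, rose in Wntlow against Wntnegative by 0.50 (SE 0.09, adjusted p = 0.000881) and 0.42 (SE 0.08, adjusted p = 0.000807). Uqcrc2 also rose in Wnthigh against Wntnegative, by 0.26 (adjusted p = 0.0136). Uqcrc1 in Wnthigh minus Wntlow was -0.30 (adjusted p = 0.0241), which passed no longer with the replicate block (adjusted p = 0.0556) or without any 1 of experiments 2, 3, 5 and 7 (adjusted p = 0.0502 to 0.0742). Uqcrfs1, the Rieske iron-sulfur protein, differed by 0.15 (adjusted p = 0.019) in Wntlow minus Wntnegative and by -0.20 (adjusted p = 0.00229) in Wnthigh minus Wntlow. The former passed no longer without experiment 3, 5 or 9 (adjusted p = 0.0524 to 0.0966). In Wnthigh minus Wntlow all 8 genes of the complex were below 0, and Uqcr10, Uqcrb, Uqcrc1, Uqcrfs1 and Uqcrh passed (62.5%). Of all genes 16.4% fell in that comparison, and 44.1% were above 0.

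Promoter windows of 3 members are shown because Uqcr10 and Ndufa1 were higher on every Wntlow array than on any other array of their run, and Sdhd was the subunit with the largest increase in Wnthigh against Wntnegative. Each window is 300 bases long and covers the start of the gene in RefSeq (GRCm38.p6), 5′ to 3′ on the gene's own strand, at chr11:4704295-4704594 (minus strand) for Uqcr10, chrX:37191189-37191488 (minus) for Ndufa1 and chr9:50603800-50604099 (minus) for Sdhd. The windows are given for context, and binding to them was not measured.
Uqcr10: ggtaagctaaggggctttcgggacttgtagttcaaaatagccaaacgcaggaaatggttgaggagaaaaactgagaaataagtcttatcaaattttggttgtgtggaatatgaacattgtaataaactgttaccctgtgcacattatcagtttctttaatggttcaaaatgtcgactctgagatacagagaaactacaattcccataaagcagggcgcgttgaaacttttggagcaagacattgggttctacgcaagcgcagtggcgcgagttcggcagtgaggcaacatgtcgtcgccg
Ndufa1: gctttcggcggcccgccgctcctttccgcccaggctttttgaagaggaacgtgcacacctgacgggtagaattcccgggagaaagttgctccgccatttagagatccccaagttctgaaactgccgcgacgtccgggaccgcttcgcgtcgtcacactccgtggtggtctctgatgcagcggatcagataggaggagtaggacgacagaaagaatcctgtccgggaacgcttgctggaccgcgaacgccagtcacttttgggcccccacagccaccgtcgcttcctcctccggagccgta
Sdhd: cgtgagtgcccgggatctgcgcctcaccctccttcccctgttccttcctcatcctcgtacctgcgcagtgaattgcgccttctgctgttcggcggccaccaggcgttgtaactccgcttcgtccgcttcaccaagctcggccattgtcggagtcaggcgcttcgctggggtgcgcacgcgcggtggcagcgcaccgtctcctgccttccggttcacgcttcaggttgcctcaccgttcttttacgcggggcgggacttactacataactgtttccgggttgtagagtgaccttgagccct

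Complex IV, cytochrome c oxidase, had its widest difference in Cox6a2 in both comparisons with Wntnegative and in Cox7a2l in Wnthigh minus Wntlow. Of its 18 genes, 1 (5.56%) rose and 4 (22.2%) fell in Wnthigh against Wntnegative, beside 15.7% and 24.6% of all genes. In Wntlow against Wntnegative 4 (22.2%) rose and 2 (11.1%) fell, beside 12.3% and 13.2%. In Wnthigh against Wntlow 0 rose and 3 (16.7%) fell, beside 11.4% and 16.4%. The shares that fell were thus near those of all genes. Cox6a2, the heart and muscle form of subunit VIa, read 8.72, 8.83 and 9.41 in Wntnegative, 5.81, 5.90 and 7.25 in Wnthigh and 6.62, 6.70 and 9.43 in Wntlow in the earlier run. The later arrays gave 7.27, 7.35 and 7.60 in Wntnegative, 4.65, 4.88 and 5.10 in Wnthigh and 4.64, 5.58 and 5.58 in Wntlow. Wntnegative lay above Wnthigh in each run, and the Wntlow array of experiment 4 reached its range. Of the later arrays, 2 Wnthigh and 1 Wntlow were below background. The difference from Wntnegative was -2.60 (SE 0.42, adjusted p = 8.03e-05) in Wnthigh and -1.77 (SE 0.42, adjusted p = 0.0046) in Wntlow. Wnthigh minus Wntlow was -0.83 (SE 0.42, adjusted p = 0.176), and -0.56 (adjusted p = 0.0274) without experiment 4. The common form Cox6a1 had differences of 0.07, 0.17 and -0.10 in Wnthigh minus Wntnegative, Wntlow minus Wntnegative and Wnthigh minus Wntlow, none of which passed (adjusted p = 0.382 or more).

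Cox6b2, known as the testis form of subunit VIb, was lowest in Wnthigh. It read 7.50, 7.95 and 7.97 in Wnthigh, 8.52, 8.59 and 9.09 in Wntlow and 8.52, 8.72 and 8.86 in Wntnegative in the earlier run. In the later run it read 6.10, 6.35 and 6.44, then 7.13, 7.20 and 7.54, and 7.13, 7.27 and 7.65. The Wnthigh arrays lay below all others of their run, and Wntlow and Wntnegative overlapped. Wnthigh differed by -0.98 (SE 0.12, adjusted p = 7.7e-06) from Wntnegative and by -0.96 (SE 0.12, adjusted p = 2.25e-05) from Wntlow, and Wntlow minus Wntnegative was -0.01 (adjusted p = 0.953). Its common form Cox6b1 had 0.09, -0.31 and 0.39 in these comparisons, and none passed (adjusted p = 0.683, 0.15 and 0.0627). The last passed with array centring (adjusted p = 0.0395), with dim genes left out (adjusted p = 0.0379) and with quantile normalization over both runs (adjusted p = 0.0207). Cox7a2l, a Cox7a relative with a role in supercomplexes of the chain, differed in Wnthigh by -0.97 (SE 0.23, adjusted p = 0.00307) from Wntnegative and by -0.97 (SE 0.23, adjusted p = 0.0042) from Wntlow. Cox7a1, the muscle form, fell against Wntnegative by 0.57 (difference -0.57, adjusted p = 0.0236) in Wnthigh and by 0.59 (difference -0.59, adjusted p = 0.0302) in Wntlow. The first passed no longer without experiment 5 or 7 (adjusted p = 0.0872 and 0.102), the second without any 1 of experiments 3, 5, 7 and 9 (adjusted p = 0.0504 to 0.165), which leaves 1 member lower in place of 2.

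The common subunits of complex IV differed little. Cox4i1, which most tissues use, rose against Wntnegative by 0.28 (SE 0.08, adjusted p = 0.00796) in Wnthigh and by 0.32 (SE 0.08, adjusted p = 0.00508) in Wntlow. Cox5a rose in Wntlow by 0.42 (SE 0.10, adjusted p = 0.00598). Cox4i2, known as the lung form of subunit IV, read 5.56 to 5.78 over the 9 arrays of the earlier run and 3.86 to 4.01 over those of the later run, where it was below background. Its groups overlapped in each run and no difference passed (adjusted p = 0.523 or more). Cox7a2, Cox7b and Cox8a passed in no comparison of the main fit. Cox7b in Wnthigh minus Wntlow (-0.22, adjusted p = 0.0879) passed with the replicate block (-0.28, adjusted p = 0.0332). It also passed in experiments 7 to 9 alone (-0.46, adjusted p = 0.0382), with array weights and without experiment 2 (adjusted p = 0.0342 and 0.0366). Without the Wntlow arrays of experiments 3 and 4 it passed as well (-0.31, adjusted p = 0.0296). With quantile normalization over both runs the signs of Cox7a2 and Cox8a in Wnthigh minus Wntnegative turned to 0.24 (adjusted p = 0.0318) and 0.18 (adjusted p = 0.0463), from -0.07 and -0.04. Cox7b2, Cox8b and Cox8c lay at or near background, and the call of Cox7b2 in Wnthigh minus Wntlow (-0.36, adjusted p = 0.0481) was lost with the replicate block (adjusted p = 0.184) and without any 1 of 6 experiments.

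ATP synthase had 8 of its 17 genes (47.1%, all genes 12.3%) higher and 0 (all genes 13.2%) lower in Wntlow against Wntnegative. The increases were 0.12 to 0.99. In Wnthigh against Wntnegative Atp5b, Atp5md and Atp5mpl rose (17.6%, all genes 15.7%). Atp5d, Atp5f1 and Atp5j2 fell there (17.6%, all genes 24.6%). In Wnthigh against Wntlow 1 (5.88%, all genes 11.4%) rose and 10 (58.8%, all genes 16.4%) fell. Atp5mpl, a small protein bound to the membrane part, read 15.97, 16.03 and 16.08 in Wnthigh, 15.54, 15.90 and 16.35 in Wntlow and 15.26, 15.29 and 15.30 in Wntnegative in the earlier run. Values in experiments 7 to 9 were 15.19, 15.64 and 15.69, then 15.20, 15.28 and 15.70, and 13.44, 14.37 and 14.38. Wntnegative lay below both other groups, which overlapped. The difference from Wntnegative was 1.10 (SE 0.19, adjusted p = 0.000175) in Wnthigh and 0.99 (SE 0.19, adjusted p = 0.00102) in Wntlow. Atp5md, which helps hold enzyme dimers together, rose by 0.62 (SE 0.08, adjusted p = 4.73e-06) and 0.44 (SE 0.08, adjusted p = 0.000409) in the same comparisons.

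Atp5d, the delta subunit of the central stalk, read 7.65, 7.96 and 7.97 in Wnthigh, 8.03, 8.41 and 8.50 in Wntlow and 8.45, 8.64 and 8.73 in Wntnegative in the earlier run. Its values in the later run were 5.54, 5.67 and 5.92, then 6.50, 6.56 and 6.60, and 6.29, 6.29 and 6.48. Wnthigh lay below all other arrays of its run. It differed by -0.69 (SE 0.11, adjusted p = 6.38e-05) from Wntnegative and by -0.65 (SE 0.11, adjusted p = 0.000218) from Wntlow, while the mean with a dim second probe set gave -0.23 (adjusted p = 0.0657) against Wntlow. Atp5f1, subunit b of the peripheral stalk, fell in Wnthigh against Wntnegative (-0.72, SE 0.10, adjusted p = 1.29e-05) and against Wntlow (-0.49, SE 0.10, adjusted p = 0.000874). Its Wntlow minus Wntnegative value of -0.23 (adjusted p = 0.0989) passed with the replicate block (adjusted p = 0.041), which was the direction opposite to the 8 ATP synthase genes that rose there.

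The catalytic head moved by small amounts. Atp5b, the beta subunit where ATP is made, rose against Wntnegative by 0.25 (SE 0.04, adjusted p = 3.68e-05) in Wnthigh and by 0.12 (SE 0.04, adjusted p = 0.024) in Wntlow, the latter passing no longer without any 1 of experiments 3, 4, 8 and 9 (adjusted p = 0.0532 to 0.102). Wnthigh minus Wntlow of Atp5b was 0.13 (adjusted p = 0.0147), and passed no longer without experiment 8 (adjusted p = 0.0541). Atp5a1, the alpha subunit, had -0.03, 0.07 and -0.09 in Wnthigh minus Wntnegative, Wntlow minus Wntnegative and Wnthigh minus Wntlow. The last passed (adjusted p = 0.0417), but not with the replicate block (adjusted p = 0.173). It was also lost without any 1 of experiments 2, 3, 4, 5, 7 and 8 (adjusted p = 0.0679 to 0.101). With quantile normalization over both runs the first and last turned to 0.18 (adjusted p = 0.00748) and 0.082 (adjusted p = 0.279). Atp5o passed in Wnthigh minus Wntlow (-0.23), but not without any 1 of experiments 2, 4, 5, 7 and 8 (adjusted p = 0.0614 to 0.0971). Atp5g1, Atp5g2 and Atp5g3, which encode the same c subunit of the rotor, rose in Wntlow against Wntnegative by 0.32, 0.46 and 0.24 (adjusted p = 0.0164, 0.0164 and 0.0297). The call of Atp5g1 was lost without experiment 7 or 8, that of Atp5g2 without experiment 8 and that of Atp5g3 without any 1 of experiments 3, 5, 7 and 8, at adjusted p of 0.0657 to 0.105. The probe set read for Atp5g2 is annotated to chromosome 7 and the gene lies on chromosome 15, and a set on chromosome 15 gave 0.41 (adjusted p = 0.0535). The probe set read for Atp5l likewise lies on another chromosome than the gene, and Atp5l passed in no comparison of the main fit. With the replicate block it passed in Wnthigh minus Wntlow (-0.42, adjusted p = 0.0235).

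Among the assembly factors, which build the complexes without being part of them, 5 of 10 genes rose against Wntnegative in Wnthigh and 5 in Wntlow, and 0 fell in either. Of all genes 15.7% rose and 24.6% fell in Wnthigh, and 12.3% rose and 13.2% fell in Wntlow, each against Wntnegative. Ndufaf7, a methyltransferase that acts on complex I, read 9.88, 10.14 and 10.17 in Wnthigh, 9.78, 10.51 and 11.14 in Wntlow and 8.54, 8.60 and 8.75 in Wntnegative in the earlier run. In the later run it read 8.90 on all 3 Wnthigh arrays, 9.41, 9.91 and 10.12 in Wntlow and 7.30, 7.39 and 7.43 in Wntnegative. Wntnegative lay below both other groups in each run, and Wnthigh lay below Wntlow in the later one. The difference from Wntnegative was 1.48 (SE 0.19, adjusted p = 6.07e-06) in Wnthigh and 2.14 (SE 0.19, adjusted p = 1.14e-06) in Wntlow, the largest increase of any member there. Wnthigh minus Wntlow was -0.66 (adjusted p = 0.0122), lost without experiment 7 (adjusted p = 0.0689) or 8 (adjusted p = 0.0695).

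Ndufaf3, an early complex I assembly factor, had Wnthigh highest. It read 9.40, 9.53 and 9.77 in Wnthigh, 8.48, 8.84 and 9.15 in Wntlow and 7.95, 8.09 and 8.28 in Wntnegative in the earlier run. Later arrays read 8.41, 8.70 and 8.92, then 7.37, 7.57 and 8.16, and 6.51, 6.69 and 7.23. The 3 groups did not overlap in either run. Ndufaf3 was higher than in Wntnegative by 1.67 (SE 0.16, adjusted p = 4.21e-07) in Wnthigh and by 0.81 (SE 0.16, adjusted p = 0.00154) in Wntlow, and Wnthigh minus Wntlow was 0.86 (SE 0.16, adjusted p = 0.000618). Sdhaf1 and Sdhaf2, which mature complex II, were at or near background in the later run and passed in no comparison (adjusted p = 0.122 or more). Without experiment 9, Sdhaf1 passed in Wnthigh minus Wntlow (-0.33, adjusted p = 0.0425).

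The factors that set mitochondrial content and the pathways that feed the chain were read from lists outside the prefix rule. Of 18 measured regulators of mitochondrial biogenesis, 3 (16.7%) rose and 10 (55.6%) fell in Wnthigh against Wntnegative, beside 15.7% and 24.6% of all genes. In Wntlow against Wntnegative 3 (16.7%) rose and 4 (22.2%) fell, beside 12.3% and 13.2%. In Wnthigh against Wntlow 4 (22.2%) rose and 6 (33.3%) fell, beside 11.4% and 16.4%. Among genes above background on at least 3 arrays the shares were 27.6% and 39.7%, 22.5% and 21.6%, and 20.3% and 29.8%. Ppargc1a, the PGC-1alpha coactivator, rose by 1.81 in Wnthigh and by 0.66 in Wntlow, each against Wntnegative, and Tefm, an elongation factor of mitochondrial transcription, rose by 1.82 and 1.07. Polg, the mitochondrial DNA polymerase, had -1.48 and -1.16 in these comparisons. Nrf1 passed in none, at -0.16, -0.21 and 0.05 (adjusted p = 0.131, 0.0645 and 0.732), but with the replicate block the first was -0.22 (adjusted p = 0.02) and the second passed as well (adjusted p = 0.026).

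Of 17 citric acid cycle genes, 6 (35.3%) rose and 6 (35.3%) fell in Wnthigh against Wntnegative, and 3 (17.6%) rose and 0 fell in Wntlow. In Wnthigh against Wntlow 3 (17.6%) rose and 7 (41.2%) fell. Of all genes 15.7% rose and 24.6% fell in Wnthigh minus Wntnegative (27.6% and 39.7% of those above background on at least 3 arrays). The shares were 12.3% and 13.2% (22.5% and 21.6%) in Wntlow minus Wntnegative. They were 11.4% and 16.4% (20.3% and 29.8%) in Wnthigh minus Wntlow. Suclg2, a succinyl-CoA ligase subunit, rose by 1.60 in Wnthigh and 0.71 in Wntlow. Idh2, which makes NADPH in mitochondria, was highest in Wntlow, at -0.88 in Wnthigh and 0.61 in Wntlow, each against Wntnegative, and -1.49 in Wnthigh minus Wntlow. Of 19 carriers and outer membrane genes, 10 (52.6%) rose and 4 (21.1%) fell in Wnthigh minus Wntnegative. Then 9 (47.4%) rose and 0 fell in Wntlow minus Wntnegative, and 6 (31.6%) rose and 4 (21.1%) fell in Wnthigh minus Wntlow. The channel Vdac3 rose by 1.90, 1.07 and 0.82 in that order, and the chaperone Hspa9 had -0.33, 0.31 and -0.64. Fuel genes moved both ways, as did genes above background at the shares given above. Of 16 beta-oxidation genes 5 rose and 6 fell, 5 rose and 1 fell, and 2 rose and 7 fell in that order. These were 31.2% and 37.5%, 31.2% and 6.25%, and 12.5% and 43.8%. Etfa, which passes electrons from fatty acid oxidation to the chain, rose by 1.76 in Wnthigh and 1.34 in Wntlow. Of 17 glycolysis genes 6 rose and 7 fell (35.3% and 41.2%), then 6 rose and 3 fell (35.3% and 17.6%). Last, 3 rose and 9 fell (17.6% and 52.9%). The glucose carrier Slc2a1 was at 3.30, 2.04 and 1.26 and the hexokinase Hk2 at -2.99, -1.66 and -1.32.

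Factors that assemble complexes III and IV without carrying a member prefix numbered 19. In Wnthigh against Wntnegative 3 (15.8%) were higher and 5 (26.3%) lower, beside 15.7% and 24.6% of all genes. In Wntlow against Wntnegative 5 (26.3%) were higher and 1 (5.26%) lower, beside 12.3% and 13.2%. In Wnthigh against Wntlow 3 (15.8%) were higher and 9 (47.4%) lower, beside 11.4% and 16.4%. Coa3, needed for the first steps of complex IV assembly, followed the order of Uqcr10, at 0.02 (adjusted p = 0.951), 1.11 and -1.09. Bcs1l, which inserts the Rieske protein into complex III, fell in Wnthigh, at -0.89 against Wntnegative and -0.91 against Wntlow. Of 8 complex I assembly genes 1 rose and 3 fell, 2 rose and 0 fell, and 1 rose and 5 fell, with the iron-sulfur factor Nubpl at 2.13, 0.91 and 1.22. Of 18 other chain genes 4 were measured under the symbols listed, namely Cycs, Cyc1, Cyct and Atpif1. The subunits encoded in mitochondrial DNA were on that list and were not read. Cytochrome c (Cycs), cytochrome c1 (Cyc1) and Cyct passed in no comparison, except Cyc1 in Wnthigh minus Wntnegative with the replicate block (-0.19, adjusted p = 0.046). Atpif1, the inhibitor of ATP synthase, rose by 1.22, 0.48 and 0.74. Values named in these lists without an adjusted p passed at an adjusted p of 0.0278 or less.

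**Figure D5:**
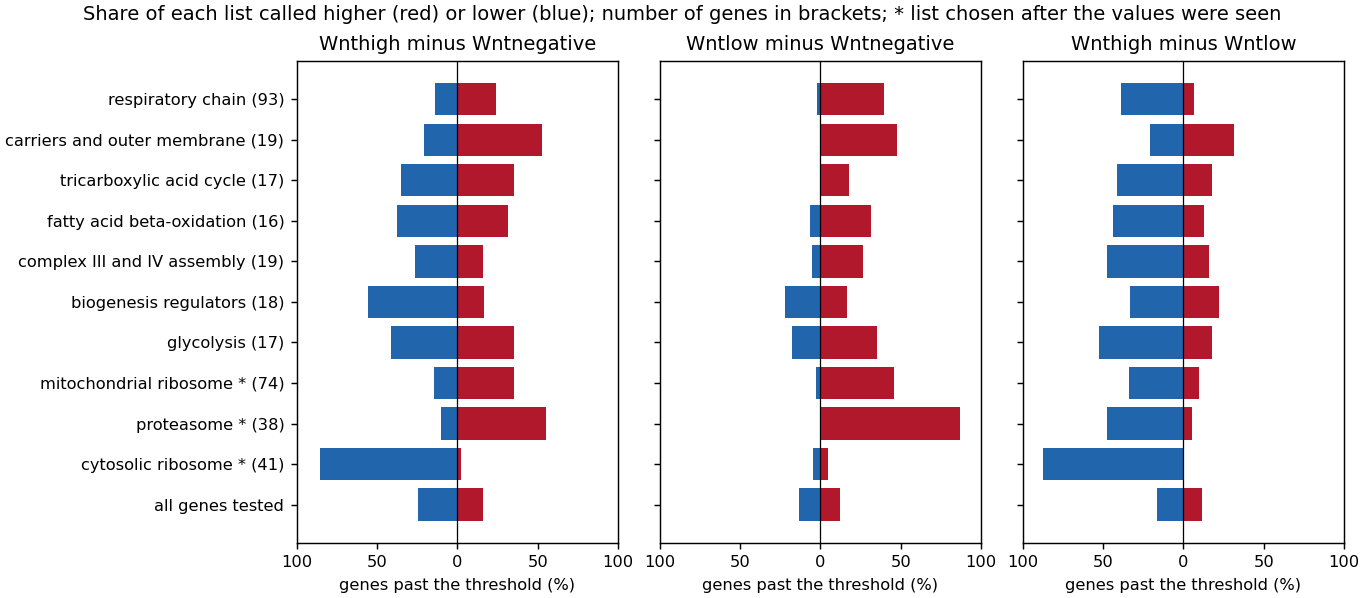
Share of the genes of each list that passed limma as higher (red, to the right) or lower (blue, to the left), in percent, for the 3 comparisons, with the number of measured genes in brackets and all genes tested at the bottom; lists marked * were chosen after the values were seen. The respiratory chain bar reaches 39.8% higher in Wntlow minus Wntnegative and 38.7% lower in Wnthigh minus Wntlow.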

How the data were processed

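Epithelial cells of 18 sorted fractions from 7 experiments were measured on Affymetrix arrays after amplification of 8 ng of RNA. The authors deposited log2 values made with RMA, which corrects background, quantile normalizes and summarizes probes, per the submitters' processing notes. The sources used here name neither annotation library nor genome build. Leaving out controls, 65770 probe sets remained, of which 30439 had 1 symbol in the platform annotation and gave 30105 genes. Array values reached 19.93, and how that scale arose is not given, so differences are not stated as ratios of RNA. Differences were tested with limma 3.58.1 in R 4.3.3 (lmFit and eBayes, two-sided, Benjamini-Hochberg over all genes, threshold 0.05), in 1 fit with group and run. No filter on dim genes was applied. The procedure was tested on simulated data with independent noise on every array. That simulation held no effect shared by arrays of 1 experiment, so it does not cover the pairing described next. The labels give arrays of different groups a shared experiment number, so it pairs them: same-numbered arrays correlated at 0.487 to 0.802 in 16 pairs after group centring, and at 0.00274 to 0.516, with 12 of 16 over 0.1, once the run was removed. Replicates are pools of separate experiments, and 18 arrays limit the precision. Named genes are the highest and lowest member of each class and comparison, catalytic core subunits, isoform families and the extremes of each pathway list, plus Ndufaf6 and class members named beside their counts. The members, lists and rules were chosen with earlier results of these data known. RefSeq (GRCm38.p6), the source of the promoter windows, matched 92 of 93 members, with Atp5f1 now Atp5pb and Atp5sl now Dmac2. Equal values on at least 2 arrays of a run occurred in 59 of 93 members. The alternatives were no block, replicate blocks, each run alone, other scalings, dim genes left out, means over probe sets, fits of only the groups compared, a trended and robust variance, weights for arrays, and leaving out experiments singly.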

Additional observations from a re-analysis of the deposited data

Results flagged for a closer look

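Of 150 groups of 6 arrays tested, with values taken relative to the mean of their run, 18 (12%) had 1 array whose gap to the next exceeded 0.625 of the range of the group, and chance alone flags about 1 in 20. The gap is given as a share of that range.

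Wntnegative experiment 9 stood apart in 5 genes, with shares of 0.843 for Atp5mpl, 0.894 for Cox4i1, 0.71 for Ndufv2, 0.719 for Uqcrc1 and 0.79 for Uqcrc2. It was the lowest array of its group for these genes. Wntlow experiment 8 was the highest array of its group in Cox5a (0.728), Cox6a1 (0.671), Cox8a (0.648) and Ndufa4 (0.763). Wnthigh experiment 2 stood apart in Atp5a1 (0.63), Ndufs1 (0.665) and Sdha (0.666), and Wnthigh experiment 7 in Cox8a (0.653) and Sdhb (0.68).

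Single flags fell on Wntlow experiment 4 for Cox6a2 (0.688), Wntlow experiment 5 for Sdhaf2 (0.744), Wntnegative experiment 5 for Sdha (0.751) and Wntnegative experiment 7 for Cox8b (0.726), which is below background. The calls of Cox4i1, Atp5mpl and Uqcrc2 against Wntnegative also passed without experiment 9.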

How the results depend on the processing

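The run block carries the counts. With group as the only term, 4 members were higher and 1 lower in Wnthigh minus Wntnegative, 2 and 0 in Wntlow minus Wntnegative, and 0 and 1 in Wnthigh minus Wntlow, and pathway genes outside the prefix rule gave 8 and 3, 4 and 0, and 0 and 2. That fit keeps the offset between runs as residual spread. In experiments 2 to 5 alone, 8 members were lower in Wnthigh minus Wntnegative, 7 higher and 0 lower in Wntlow minus Wntnegative, and 3 higher and 7 lower in Wnthigh minus Wntlow; pathway genes gave 9 higher and 0 lower in Wntlow minus Wntnegative and 6 higher and 15 lower in Wnthigh minus Wntlow. In experiments 7 to 9 alone, 12 members were higher in Wnthigh minus Wntnegative, 18 higher and 1 lower in Wntlow minus Wntnegative, and 2 higher in Wnthigh minus Wntlow; pathway genes gave 24 lower, 22 higher and 25 lower in the same order. These fits have fewer arrays. The shares of all genes in the fits of this paragraph stand with each comparison above.

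Quantile normalization over both runs gave 39 members (41.9%, all genes 19.5%) higher in Wnthigh minus Wntnegative. The member median there was 0.14 in place of -0.01, and 23 pathway genes were lower in place of 41. The same normalization reversed Atp5a1 (0.18), Cox7a2 (0.24) and Cox8a (0.18) in that comparison. It also reversed Atp5a1 (0.082) and Cox7a2 (0.24) in Wnthigh minus Wntlow, and the cause was not tested. In Wntlow minus Wntnegative 54 members were higher with array centring (all genes 17.1%) and 45 with quantile normalization (all genes 14.7%), in place of 37 (all genes 12.3%). In that comparison 1 member was lower in place of 2 with either (all genes 9.1% and 9.06%) and with only the 2 groups compared (all genes 11.4%). Pathway genes lower there were 14 with the replicate block and 16 with array weights, in place of 9. The replicate block gave 21 members higher and 14 lower in Wnthigh minus Wntnegative, 41 and 3 in Wntlow minus Wntnegative, and 5 and 37 in Wnthigh minus Wntlow. The shares of all genes with that block were 14.7% and 23.6%, 13% and 13.5%, and 10.9% and 16.2% in the same order. The replicate block changed 17 calls of members and 25 of pathway genes relative to the main fit. Those of genes named in the report stand beside their results. Among the other members, Ndufb4b in Wnthigh minus Wntnegative and Atp5e and Ndufb9 in Wntlow minus Wntnegative passed with it and not in the main fit. So did Atp5l2 in Wnthigh minus Wntlow. Ndufs5 in Wnthigh minus Wntnegative and Ndufs6 in Wntlow minus Wntnegative passed in the main fit and not with it.

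Leaving out 1 experiment gave 18 to 24 members higher and 10 to 14 lower in Wnthigh minus Wntnegative, 27 to 36 higher and 1 to 2 lower in Wntlow minus Wntnegative, and 5 to 7 higher and 26 to 38 lower in Wnthigh minus Wntlow. Of all genes, 14.4% to 15.3% rose and 21.2% to 23.6% fell in these fits of the first comparison. The shares were 10.1% to 12.4% and 9.72% to 13% in the second, and 10% to 11.5% and 13.8% to 17% in the third. The medians of the members ran from -0.04 to 0.04, 0.17 to 0.24 and -0.23 to -0.15. Pathway genes gave 32 to 37 and 37 to 43, 26 to 35 and 7 to 11, and 18 to 23 and 37 to 49. Signal near background limits Cox7b2, Cox8b, Cox8c, Cox4i2 and Ndufa4l2.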

Other observations

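Other large protein machines were read from lists chosen after values had been seen, so they are descriptions. Of all genes 12.3% rose and 13.2% fell in Wntlow minus Wntnegative. The shares were 15.7% and 24.6% in Wnthigh minus Wntnegative, and 11.4% and 16.4% in Wnthigh minus Wntlow. Of 74 measured genes of the mitochondrial ribosome, which translates the chain subunits encoded in mitochondrial DNA, 34 (45.9%) rose and 2 fell in Wntlow minus Wntnegative, 26 rose and 11 fell in Wnthigh minus Wntnegative, and 7 rose and 25 (33.8%) fell in Wnthigh minus Wntlow. The medians were 0.19, 0.05 and -0.13. Of 38 proteasome genes, 33 (86.8%) rose and 0 fell in Wntlow minus Wntnegative with a median of 0.70, 21 rose and 4 fell in Wnthigh minus Wntnegative, and 2 rose and 18 fell in Wnthigh minus Wntlow with a median of -0.29.

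The cytosolic ribosome differed from these. Of 41 measured genes, 35 (85.4%, all genes 24.6%) fell and 1 rose in Wnthigh minus Wntnegative with a median of -0.69. In Wnthigh minus Wntlow 36 (87.8%, all genes 16.4%) fell and 0 rose, with a median of -0.72. In Wntlow minus Wntnegative 2 (4.88%, all genes 12.3%) rose and 2 (4.88%, all genes 13.2%) fell.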
